A study of Mus musculus with 4 samples.

Results

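The genes described here are Slpi, secretory leukocyte protease inhibitor, and 8 of its relatives that carry a whey acidic protein (WAP) domain, Wfdc1, Wfdc2, Wfdc3, Wfdc5, Wfdc12, Wfdc15a, Wfdc15b and Expi. They were found by exact gene name among the non-control probes of a whole mouse genome array, which gave 9 of 34844 gene names and 11 of 55681 probes. Expi, extracellular proteinase inhibitor, is called Wfdc18 in the RefSeq table. The question was whether the relatives of Slpi share its decrease in salivary glands (SGs) that lack MyD88.

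RNA came from SGs of female C57/BL6 mice at 10 weeks of age, either null for Myd88 (2 arrays, labelled Myd88-KO) or wild type (2 arrays, labelled Wildtype). The null allele is present in every cell of the body, and the methods describe mutants and controls bred from heterozygous parents. The labels give submandibular and sublingual glands as the tissue, dissected free of lymph nodes, connective tissue and fat, whereas the study's text on the arrays names submandibular glands and gives a larger number of replicates for each genotype. The labels do not say whether the 2 arrays of a group came from separate mice, so the p-values below measure only the spread between these samples, which may be technical.

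The WAP domain is a small fold held together by disulfide bridges between its cysteines, and many proteins that carry it are secreted and block serine proteases or kill bacteria. SLPI is found in saliva and other mucosal fluids, where it inhibits neutrophil elastase, cathepsin G, chymase and tryptase, and inside cells it dampens the NF-kB response. MyD88 is the adaptor that carries signals from most Toll-like receptors and from the receptors of the interleukin-1 family to NF-kB.

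Each value below comes from probes of 60 bases, and the stretches that follow identify those on which the results turn. The probe of Slpi lies at chr2:164179849-164179908 on the minus strand (NCBI37/mm9) and starts at base 773 of its transcript. Its first 30 bases are shown with those of the Expi probe (chr11:83524751-83524810, plus strand), since these genes had the largest differences, relative to their error, among the members.
Slpi: ttactgttttaccactaacatctccttttg
Expi: acctagaattgcatccttggaagaggaaga
The probes of Wfdc12 (chr2:164015895-164015954, minus strand) and Wfdc15a (chr2:164025407-164025466, minus strand) are shown whole because they hold several triplets that can encode cysteine. The capitals mark TGC and TGT triplets, which encode cysteine, in the frame from the first base, which holds no stop in either probe. Open frames numbered 2 in Wfdc12 and 3 in Wfdc15a, and whether the marked frame is the coding one was not checked.
Wfdc12: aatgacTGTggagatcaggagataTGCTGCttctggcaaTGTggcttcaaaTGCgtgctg
Wfdc15a: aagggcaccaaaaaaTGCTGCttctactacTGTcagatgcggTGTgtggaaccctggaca
Wfdc12 had 5 such triplets, starting at bases 7, 25, 28, 40 and 52, and Wfdc15a had 4, at bases 16, 19, 31 and 43. The adjacent pair and the 2 triplets after it have the same spacing in both probes, 9 bases apart in position. With the probes set at that offset, 24 of 51 bases were identical (47.1%).
The longest run of bases that probes of 2 members shared was 11 bases over the 53 pairs of probes of different members, and 0 of the 55680 other probes held any 20-base run of the Slpi probe on either strand.

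Values are the log2 of the background-subtracted spot intensity over the 75th percentile of its array, so that 0 is the level of that percentile. Differences are Myd88-KO minus Wildtype, with the standard error (SE) of limma's fit, and adjusted p-values are corrected over all 22312 genes tested, with a threshold of 0.05. A probe was tested when the scanner software marked it well above background on both arrays of either group, as it did for 8 of the 9 members. The software marked 52.2% and 68.4% of all probes in this way on Myd88-KO arrays 1 and 2, and 74.2% and 55.1% on Wildtype arrays 1 and 2, so this share did not follow the groups. Between the arrays with the lower shares (Myd88-KO 1 and Wildtype 2) Slpi differed by -3.40, and between the others by -3.30. The only Myd88 probe (chr9:119245322-119245381) gave 1.51 and 1.41 on the arrays labelled Myd88-KO and 1.15 and 1.07 on those labelled Wildtype. It did not show a loss, the sources used here do not say whether it lies in the deleted part of the gene, and the groups are therefore named by their labels.

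Slpi was lower on both arrays labelled Myd88-KO than on both labelled Wildtype. Its log2 signal was -2.76 and -2.21 on Myd88-KO arrays 1 and 2, and 1.09 and 0.65 on Wildtype arrays 1 and 2. The group means were -2.48 ± 0.39 (SD, n = 2) and 0.87 ± 0.32 (SD, n = 2), a difference of -3.35 ± 0.28 (SE), or 10.2-fold, with a 95% interval of -4.14 to -2.57. Before scaling, the intensity of its spot was 37.9 and 51.3 on the Myd88-KO arrays and 684.5 and 421 on the Wildtype arrays, above the local background on all 4. The gap between the groups was thus many times the gap within either group.

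With limma, the difference of Slpi had an unadjusted p of 0.000379 and an adjusted p of 0.194, and no gene on the array had a smaller adjusted p. No gene passed the adjusted threshold (0 of 22312, 0%), so 0 of the 8 tested members is the share found over the whole array. At an unadjusted p under 0.05, 1 member was lower (Slpi) and 1 higher (Expi), where 6.83% of all genes tested were lower and 9.82% higher (16.7% in either direction). In size, 70 of 22312 genes (0.314%) were lower by at least as much as Slpi. Without any 1 of the 4 arrays the difference of Slpi stayed between -3.63 and -3.08. With normexp background correction it was -2.28 with an adjusted p of 0.0246, and with trended and robust moderation it was -3.35 with an adjusted p of 0.0212, so that Slpi passed the threshold in 2 of the 15 alternative settings run.

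**Figure D1:**
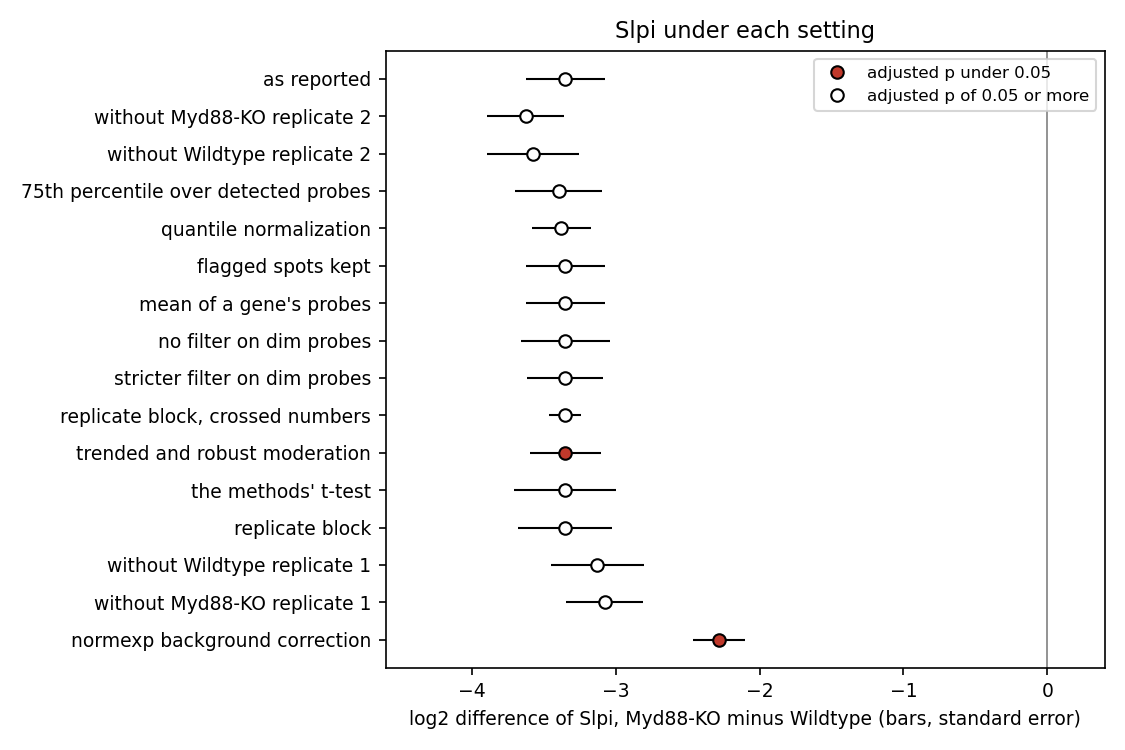
The difference of Slpi (log2, Myd88-KO minus Wildtype, horizontal axis) is plotted under the reported setting and each of 15 alternatives, with bars for the standard error and filled points for an adjusted p under 0.05. All points lie between -3.63 and -2.28, and 2 are filled.

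The 7 other tested members had differences between 0.01 and 0.96, all with a positive sign, and a median of 0.12, beside a median of 0.06 over all genes tested, 40.4% of which were lower on the arrays labelled Myd88-KO. None of the 7 had an adjusted p under 0.05. In limma's fit their 95% intervals reached down to at most -1.66 (Wfdc15b), whereas that of Slpi ended at -2.57. The interval of Slpi thus overlapped that of no other tested member in this fit. This depends on the setting. With the methods' t-test the SE was 0.35 for Slpi, 0.79 for Wfdc15b and 0.55 for Wfdc3. The wider intervals of that test overlap between Slpi and each of these 2 members. The positive signs were not stable, since under quantile normalization 3 of the 7 were below 0 and under scaling to detected probes 2 of the 7 were.

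Among the relatives, Wfdc12 and Wfdc15b are secreted proteins for which antibacterial activity has been described, and Expi is a WAP-domain protein first known from the mammary gland. The Wfdc12 signal was 9.73 and 9.60 on the Myd88-KO arrays, and 9.48 and 9.61 on the Wildtype arrays. The groups overlapped, and the difference was 0.12 ± 0.12 (SE; 95% interval -0.22 to 0.45; limma adjusted p = 0.667). The intensity of the Wfdc12 spot was 183510 to 229719, and no spot was flagged as saturated.

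Expi was 9.28 and 9.26 on the Myd88-KO arrays and 8.88 and 8.71 on the Wildtype arrays. The groups did not overlap, with the Myd88-KO arrays the higher. The difference was 0.48 ± 0.11 (SE), or 1.39-fold, with a 95% interval of 0.15 to 0.80, an unadjusted p of 0.0154 and an adjusted p of 0.223 in limma's fit. It remained between 0.39 and 0.56 without any 1 array, and it passed the adjusted threshold in 1 of 15 alternative settings, trended and robust moderation (adjusted p = 0.0464).

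Wfdc15a and Wfdc15b are neighbours in the gene cluster on chromosome 2. Wfdc15a gave -2.24 and -2.07 on the Myd88-KO arrays and -2.66 and -3.56 on the Wildtype arrays, again without overlap and with the Myd88-KO arrays higher. Its difference was 0.96 ± 0.35 (SE; 95% interval -0.04 to 1.95; limma adjusted p = 0.310), and leaving out 1 array moved it between 0.51 and 1.41. The Wfdc15a spot was dim, with intensities before scaling of 54.1 and 56.6 on the Myd88-KO arrays and 50.6 and 22.7 on the Wildtype arrays. Wfdc15b gave -3.95 and -3.15 on the Myd88-KO arrays and -2.88 and -4.25 on the Wildtype arrays.
The Wildtype arrays of Wfdc15b lay on either side of both Myd88-KO arrays, and its difference was 0.01 ± 0.59 (SE; 95% interval -1.66 to 1.68; limma adjusted p = 0.994), so that an increase and a decrease of up to 1.66 log2 units are both within it.

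**Figure D2:**
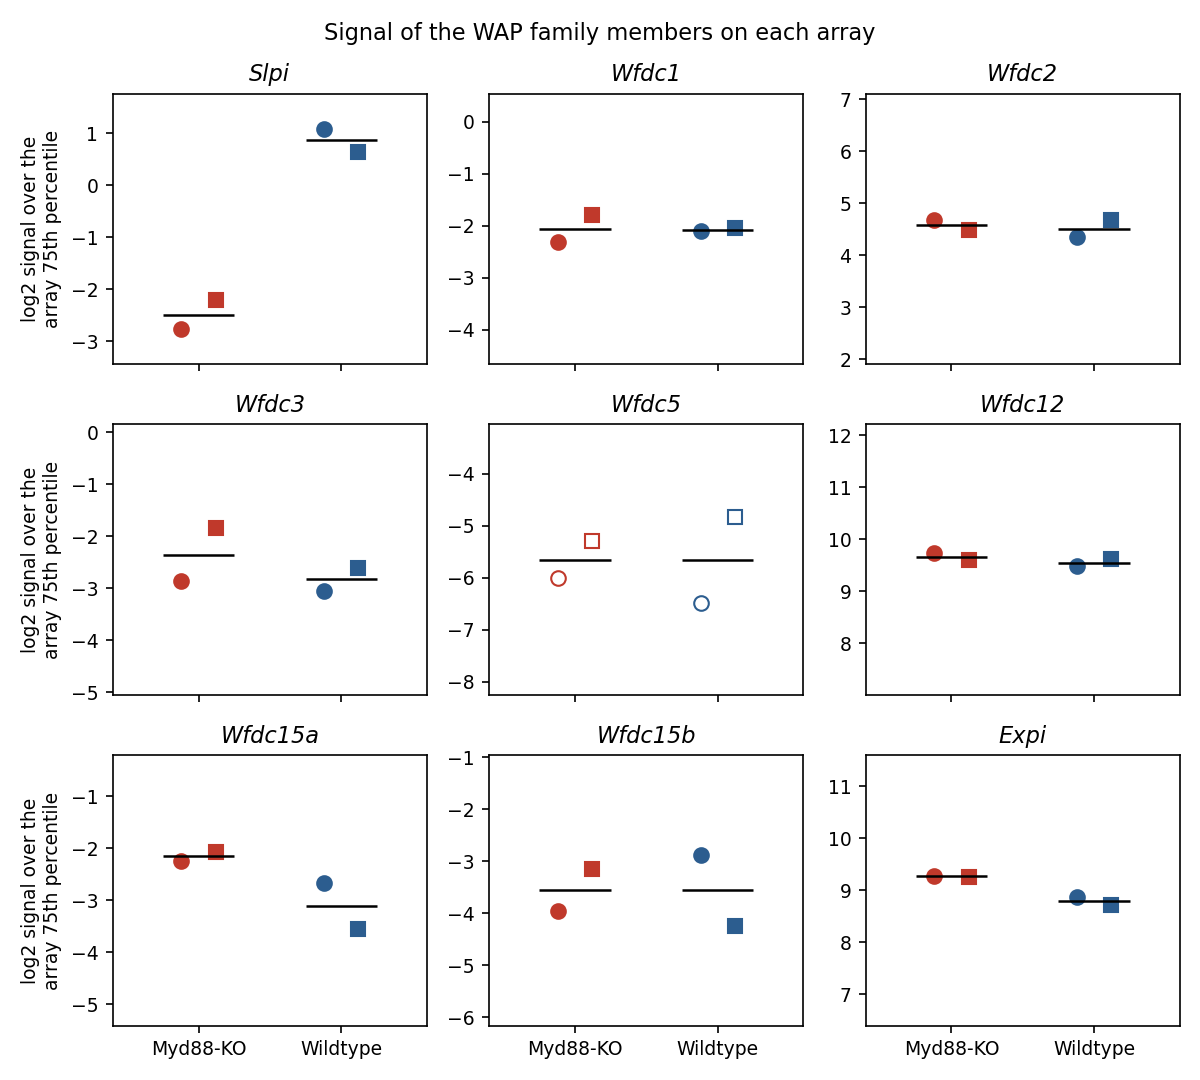
The log2 signal of each member over the 75th percentile of its array is plotted for Myd88-KO (red) and Wildtype (blue) arrays, with circles for array 1, squares for array 2, a line at the group mean and open symbols for probes not well above background on that array. Every panel spans the same number of log2 units, and Slpi, at -2.76 and -2.21 against 1.09 and 0.65, is the member whose groups stand farthest apart.

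Wfdc2, an epididymal protein also made by airway and salivary duct epithelium, gave 4.68 and 4.48 on the Myd88-KO arrays and 4.34 and 4.67 on the Wildtype arrays. The groups overlapped, with a difference of 0.07 ± 0.17 (SE; 95% interval -0.41 to 0.55; limma adjusted p = 0.868). A dimmer probe of Wfdc2 (chr2:164389616-164389675) differed by 0.11, close to the 0.07 of the brighter one (chr2:164393947-164394006). The lower end of the interval of Wfdc2, -0.41, was well above the upper end of that of Slpi, -2.57.

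Wfdc1, a growth-regulating protein of prostate stroma, lies outside the cluster, at chr8:122211586-122211645. Its signal was -2.32 and -1.80 on the Myd88-KO arrays and -2.10 and -2.05 on the Wildtype arrays, and its difference was 0.02 ± 0.21 (SE; 95% interval -0.59 to 0.62; limma adjusted p = 0.977). Both Wildtype arrays lay between the Myd88-KO arrays. Wfdc3 gave -2.86 and -1.85 on the Myd88-KO arrays and -3.05 and -2.61 on the Wildtype arrays, a difference of 0.48 ± 0.41 (SE; 95% interval -0.70 to 1.66; limma adjusted p = 0.611) with overlapping groups. A further probe of Wfdc3, between -5.89 and -4.37, was well above background on 0 of 4 arrays. The probe of Wfdc5 (chr2:164003097-164003156) was likewise above background on 0 of 4 arrays, at -6.02, -5.29, -6.48 and -4.83, so Wfdc5 was not tested and no fold change is given.

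Counted by overlap, 1 of the 8 tested members was lower on both Myd88-KO arrays than on either Wildtype array (Slpi) and 2 were higher (Expi and Wfdc15a), where 18.7% of all genes tested were lower and 33.2% higher in this way (52.0% in either direction). The change of Slpi was then compared with that of each other member within arrays. The difference of the changes (Slpi minus the other member) was -3.36 for Wfdc15b, -3.37 for Wfdc1, -3.42 for Wfdc2, -3.47 for Wfdc12, -3.83 for Wfdc3, -3.83 for Expi and -4.31 for Wfdc15a. In each of the 7 pairs both Myd88-KO arrays lay below both Wildtype arrays. All 7 pairs reuse the same Slpi values, which set this order, so they are not 7 independent observations. The exact two-sided permutation test gave p = 0.333 in each pair and 0.333 after adjustment over the 7, the smallest p that 2 arrays against 2 allow.

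**Figure D3:**
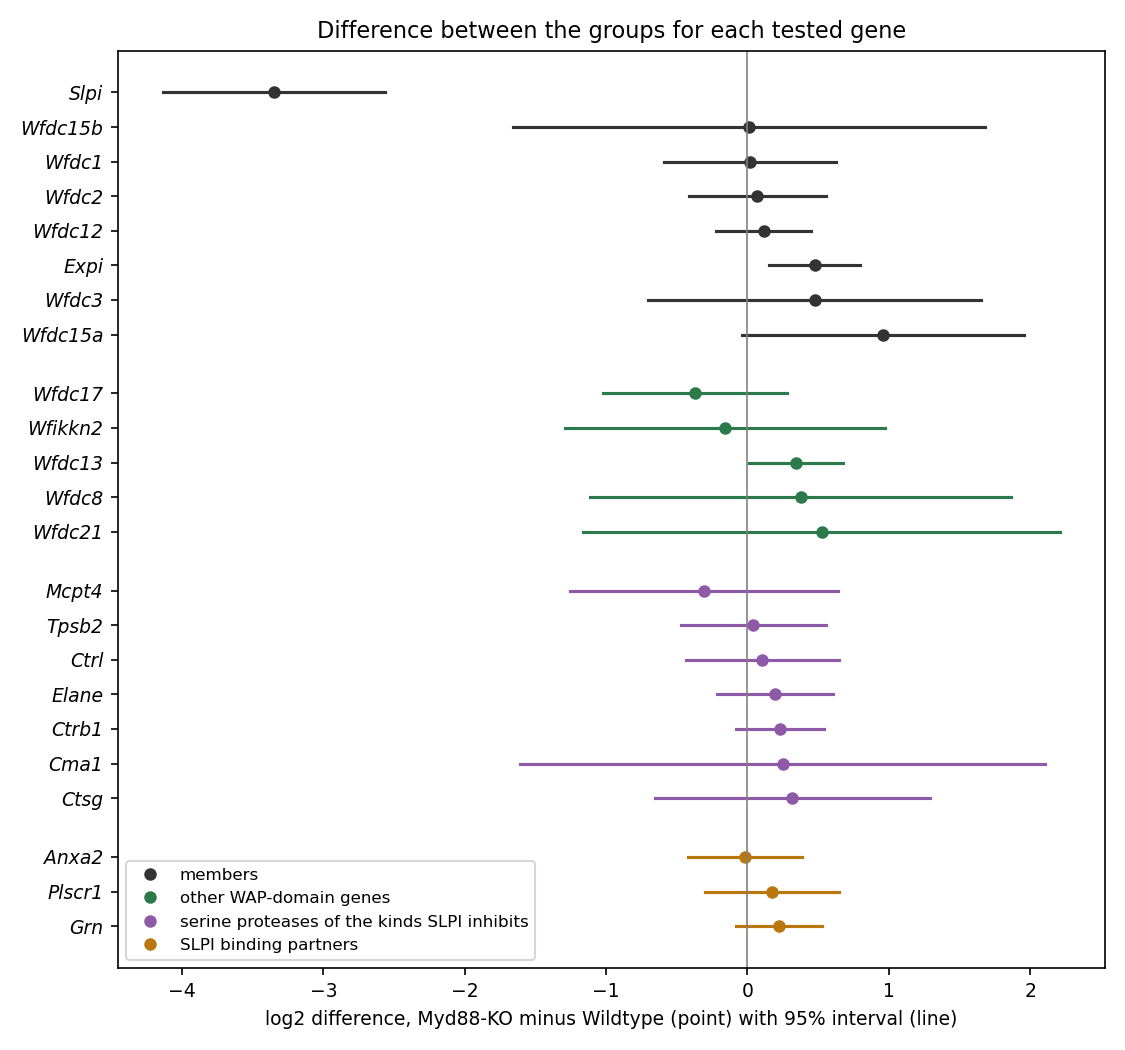
Points give the log2 difference (Myd88-KO minus Wildtype) of each tested member, other WAP-domain gene, serine protease and SLPI binding partner, and lines give the 95% interval of limma's fit. The interval of Slpi, -4.14 to -2.57, lies apart from those of the other 7 members, which span -1.66 to 1.95.

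Further WAP-domain genes were taken from a fixed list of 14, all of which had a probe. Of the 14, 5 were tested, 2 with a negative and 3 with a positive difference, from -0.37 to 0.52 with a median of 0.35, and 0 passed the adjusted threshold. Wfdc13, another gene of the chromosome 2 cluster, gave 4.53 and 4.45 on the Myd88-KO arrays and 4.06 and 4.22 on the Wildtype arrays, a difference of 0.35 ± 0.12 (SE; limma adjusted p = 0.289) without overlap. Wfdc17, which activated macrophages make, had the lowest difference of the 5. It gave -0.46 and -0.41 on the Myd88-KO arrays and 0.22 and -0.35 on the Wildtype arrays, a difference of -0.37 ± 0.23 (SE; limma adjusted p = 0.485) without overlap, both Myd88-KO arrays being the lower.
Wfdc21 (0.52 ± 0.59, SE), Wfdc8 (0.38 ± 0.52, SE) and Wfikkn2 (-0.16 ± 0.40, SE), a protein that binds growth factors of the TGF-beta family, were above background on 3 of 4 arrays each. Wap, the milk protein that gave the domain its name, Wfdc11, Wfdc16 and Wfikkn1 were above background on 2 arrays, 1 of each group, and 5 genes (Wfdc6a, Wfdc6b, Wfdc9, Wfdc10 and Eppin) on none.

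The serine proteases of the kinds SLPI inhibits formed a list of 10, of which 7 were tested. Of these, 1 had a negative and 6 a positive difference, from -0.31 to 0.32 with a median of 0.20, and 0 had an unadjusted p under 0.05. Elane, neutrophil elastase, gave 1.81 and 1.52 on the Myd88-KO arrays and 1.503 and 1.44 on the Wildtype arrays, a difference of 0.20 ± 0.14 (SE; limma adjusted p = 0.550). The difference was 0.32 ± 0.34 (SE) for Ctsg, cathepsin G, which granulocytes store.
It was -0.31 ± 0.33 (SE) for Mcpt4 and 0.25 ± 0.65 (SE) for Cma1, the chymases of mast cells, and 0.04 ± 0.18 (SE) for Tpsb2, a mast cell tryptase. The 95% interval of each of these proteases included 0, whereas that of Slpi, their inhibitor, ended at -2.57. Of the proteins that SLPI binds, Grn, progranulin, which SLPI shields from cleavage by elastase, differed by 0.22 ± 0.11 (SE; limma adjusted p = 0.396). The differences of Plscr1, a phospholipid scramblase, and Anxa2, annexin A2, were 0.17 ± 0.17 (SE) and -0.02 ± 0.14 (SE).

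Most members lie in the WAP gene cluster, between 164003097 and 164568589 on chromosome 2, where 37 genes had a probe and 16 were tested. The 10 tested genes that are not members had a median difference of 0.07, 4 below 0 and 6 above, and 0 passed the adjusted threshold. At an unadjusted p under 0.05 there was 1 of the 10, Wfdc13, beside 16.7% of all genes tested. The lowest of the 10 was Svs6, a seminal vesicle secretory protein whose probe lies at -35.8 kb from that of Slpi. Svs6 and Matn4 are named here after their values were seen.
Svs6 gave -3.79 and -6.22 on the Myd88-KO arrays and -2.59 and -3.16 on the Wildtype arrays, above background on 3 of the 4, with a difference of -2.13 ± 0.92 (SE; 95% interval -4.75 to 0.49; limma adjusted p = 0.358). On the other side of Slpi the nearest tested gene was Matn4, a matrix protein at 35.3 kb, with a difference of -0.31 ± 0.81 (SE).

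**Figure D4:**
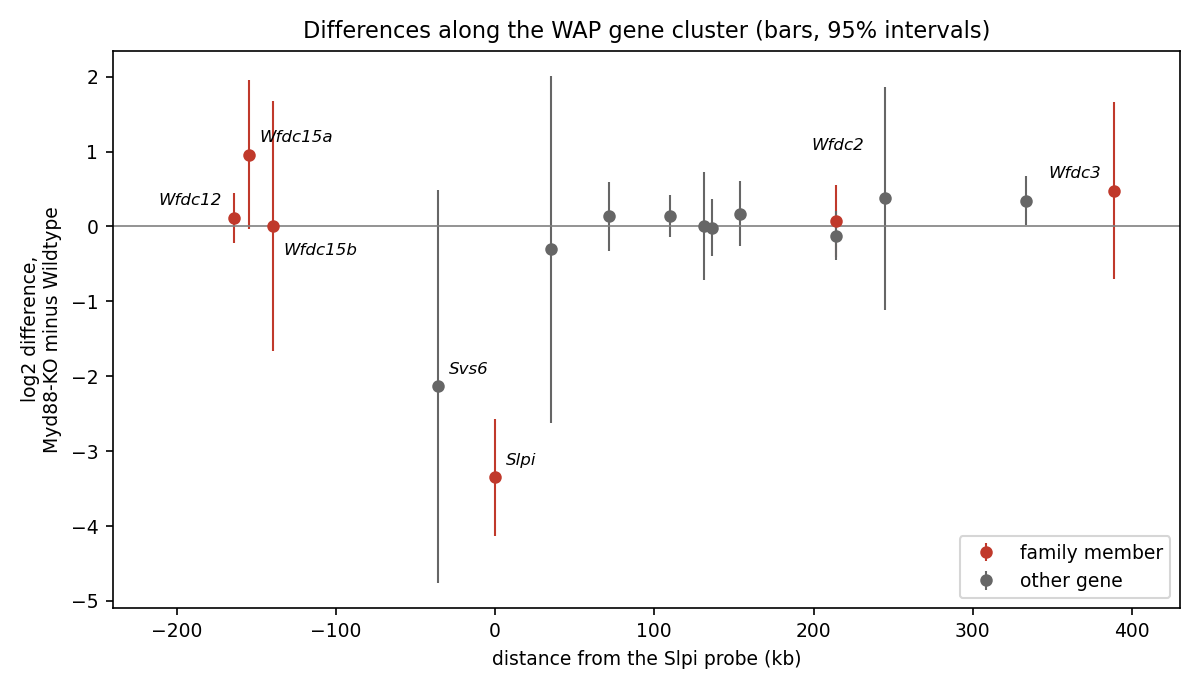
The log2 difference (Myd88-KO minus Wildtype, vertical axis) of the 16 tested genes in the chromosome 2 cluster is plotted against the distance of their probe from that of Slpi in kb, with members in red, other genes in grey and bars for 95% intervals. Slpi (-3.35) and Svs6 (-2.13) are the lowest points, and the next, Matn4, is at -0.31.

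The 5 genes whose 4 values, centred on their mean, lay nearest to those of Slpi were Prkcq, a kinase of T cell receptor signalling, Fam78a and 3 immunoglobulin variable segments. All 5 were above background on both Wildtype arrays and on neither Myd88-KO array, so no exact fold change is given. Their Myd88-KO values were raised to the lowest value of any probe above background (-3.97 and -4.03 on arrays 1 and 2). Prkcq was then 4.50-fold and Fam78a 6.60-fold lower. Some probes not above background lie higher than that value, so these figures are approximate and not strict bounds. The likeness rests on 4 arrays, on 2 of which these genes gave a signal no higher than background, so the 5 distances (0.41 to 0.50 log2 units) give no order among them.

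Summed signals of markers of other cell types stood apart between the groups as well, though none of these markers had a limma adjusted p under the threshold. Of the B cell markers, 5 of 5 tested were lower on the arrays labelled Myd88-KO, with a median of -5.08, and their summed signal (linear, in units of the 75th percentile) was 2.40 and 2.48 against 14.8 and 8.17 on the Wildtype arrays. T cell markers had negative differences in 8 of 8 tested, with a median of -1.90 and sums of 12.6 and 12.1 against 22.0 and 16.8. Of these 8, 5 were lower without overlap, where 18.7% of all genes tested were. Cd3e, Cd4 and Cd8b1 differed by only -0.06, -0.04 and -0.06, with overlapping groups. On the Myd88-KO arrays the T cell sums were made up mostly of Cd4 and Cd3e. Skeletal muscle markers were lower in 7 of 7 tested, with a median of -4.90 and sums of 2.90 and 2.93 against 21.6 and 126.
Adipocyte markers were lower in 6 of 6 tested, with a median of -0.71 and sums of 153 and 238 against 324 and 328, with Lep above background on no array. Parotid markers were lower in 5 of 6 tested, with a median of -1.41 and sums of 3797 and 2700 against 3969 and 3917. Car6 went the other way, by 0.39, with both Myd88-KO arrays higher. These sums were made up mostly of Bpifa2 (difference -0.18), Car6 and Amy1 (-0.57), so they say little of the other parotid markers. Of 6 mammary markers, Csn1s1, Csn1s2a and Csn2, the main caseins, were above background on no array. Of the 3 tested, Csn3 differed by -2.11, Lalba by 0.43, with both Myd88-KO arrays higher, and Glycam1 by -8.12, a value that rests on a signal not above background on Myd88-KO array 1. The mammary sums were 1.08 and 1.23 against 20.4 and 6.61. The Wildtype sums were made up mostly of Glycam1 (log2 signal 4.20 and 2.26), so they say little of the other mammary markers. The part of these cells in the difference of Slpi was not tested, and in such bulk RNA fewer cells of a type and less RNA per cell cannot be told apart.

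Markers of neutrophils, macrophages and the gland epithelium are given beside these. Neutrophil markers were lower in 8 of 9 tested, with a median of -0.46. Of the 9, 5 were lower on both Myd88-KO arrays without overlap, where 18.7% of all genes tested were. S100a8 (-1.54, not above background on Myd88-KO array 1), S100a9 (-1.45) and Mpo (-1.44, above background on the Wildtype arrays only) had the lowest differences. The neutrophil sums were 162 and 172 against 158 and 187, made up mostly of Csf3r (log2 signal 7.227 to 7.4998), so they say little of the other markers, whose part in the difference of Slpi was not tested. Macrophage markers were lower in 5 of 10, with a median of 0.01. Granular convoluted tubule markers were lower in 4 of 7 (median -0.15, sums of 2181 and 2121 against 1902 and 2242, overlapping). Duct markers had positive differences in 6 of 8 tested (median 0.46, sums of 462 and 466 against 313 and 322), submandibular acinar markers in 6 of 6 (median 0.38, sums of 2893 and 2950 against 2218 and 2341) and sublingual markers in 3 of 4 (median 0.31, sums of 4958 and 5050 against 3974 and 4240). These acinar, sublingual and duct sums were higher on both Myd88-KO arrays, as Expi was, and their part in its difference was not tested. No marker in these counts passed the adjusted threshold.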

How the data were processed

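Cy3-labelled RNA of the SGs was hybridised to 4 one-colour Agilent arrays. The authors deposited the scanner output of Feature Extraction 10.7.3.1, whose processed signal is an intensity already background-subtracted and corrected for trends across the array, with no normalization between arrays. The 4 value columns of a table covering the whole series carry names that match no single sample, and they were not used. The members and gene lists were chosen with earlier results of these data known.

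For each of 59305 non-control spots, the 75th percentile of the array was subtracted on the log2 scale (256 and 237 for Myd88-KO, 321 and 269 for Wildtype). Outlier spots (99 to 131 per array) were left out, no spot was saturated, and spots of a probe were averaged. Each gene was represented by its brightest tested probe. The comparison used limma 3.58.1 (lmFit, eBayes; R 4.3.3) and the Benjamini-Hochberg adjustment, a procedure tested on simulated data. The number of arrays limits the precision. Genes named are the members, tested genes of the 3 lists, Myd88, the 5 genes nearest to Slpi (Euclidean distance of centred values), and markers within their lists. Untested genes of the lists are named by their detection only, and Svs6 and Matn4 were named after their values were seen. Probe positions and sequences are those of the files (NCBI37/mm9), and RefSeq supplied synonyms only. Beside this, 14 settings were tried: each array left out, normexp (offset 50), quantile normalization, scaling to detected probes, a dim-probe filter that was stricter or absent, averaging over a gene's probes, keeping outlier spots, the methods' t-test, trended and robust moderation, and a block for the replicate number. A block of crossed numbers was added after seeing the data.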

Additional observations from a re-analysis of the deposited data

How the results depend on the processing

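Slpi kept its direction in all 15 alternatives, with adjusted p-values from 0.0212 to 0.539 in limma and the methods' t-test. It passed the threshold with normexp (-2.28, adjusted p = 0.0246) and with trended and robust moderation (-3.35, adjusted p = 0.0212). Genes called over the array numbered 0 in the reported setting (3715 at an unadjusted p under 0.05), 79 with normexp, 482 with trended and robust moderation and 1 with the methods' t-test after Benjamini-Hochberg adjustment. Members called numbered 1 with normexp (Slpi) and 2 with trended and robust moderation (Slpi and Expi), and 0 in the other 13. Expi and Wfdc15a also kept their sign, and 5 other members did not. Quantile normalization turned Wfdc2 to -0.020, Wfdc12 to -0.10 and Wfdc15b to -0.18, and scaling to detected probes turned Wfdc1 to -0.030 and Wfdc15b to -0.036. Leaving out 1 array gave -3.63 to -3.08 for Slpi (adjusted p 0.310 to 0.439), -0.24 to 0.28 for Wfdc1, -0.094 to 0.23 for Wfdc2, -0.028 to 0.98 for Wfdc3, -0.67 to 0.69 for Wfdc15b and 0 genes called. The causes were not tested.

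Arrays of the same number did not deviate together (r = -0.373 over the genes tested), whereas those of crossed numbers did (r = 0.373). Crossed numbers also match the arrays by their share of probes well above background, so this check cannot tell whether the numbers pair the samples. With the replicate number as a block, Slpi was -3.35 with a limma adjusted p of 0.440, and 0 genes were called, with 2410 in place of 3715 at an unadjusted p under 0.05. A block of crossed numbers, chosen after seeing the data, called 0 genes and 0 members. Low signal over background limits what can be said of Wfdc1, Wfdc3, Wfdc5, Wfdc15a and Wfdc15b. It also limits the size given for Slpi, whose spot intensity was 37.9 and 51.3 on the Myd88-KO arrays. With normexp the differences were -2.28 for Slpi and 0.51 for Wfdc15a.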
